A study of Capra hircus with 2 samples.

Results

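Unassigned miRNA-sized tags were the distinct sequences of 21, 22 or 23 nt in the small RNA libraries of the goat mammary gland that the lists of the study did not name. A tag was a member when it did not end in CCA, did not share its first 18 nt or more with a listed conserved miRNA and was not identical to a listed candidate miRNA. The list of conserved miRNAs held 346 sequences and the list of candidates 94. Of 1692810 distinct tags in both libraries 577914 were 21 to 23 nt long, and 552561 of these were members. The remaining tags of this length were 7256 tags of listed miRNAs, 18028 tags ending in CCA and 69 tags identical to a candidate.

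The libraries came from mammary gland of Xinong Saanen dairy goats 2.5 years old, with 1 dry period library and 1 peak lactation library. RNA of 3 goats was pooled for each library, and RNA under 30 nt was selected for sequencing. The sample labels put the dry period at 75 days after lambing, with 320 days for peak lactation, whereas the methods of the study place the days the other way round, so the sample titles were used for the stages. Clean reads numbered 14851375 in the first library and 15712891 in the second. With 1 library per stage no difference could be tested against the spread between goats, and the intervals below cover the counting of reads only. Reads without molecular identifiers are not independent molecules. In pooled tissue, fewer cells of a type and less RNA per cell cannot be told apart. The epithelial miRNA miR-200b of the list had 7599 dry period and 3983 peak lactation reads, and no other check of the tissue was made.

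A miRNA is cut from a hairpin precursor by nucleases that leave a well-defined 5′ end, while its 3′ end is more variable. Bases 2 to 8, the seed, guide the pairing with target mRNAs, so a start that moves by a single base gives another seed. Such length and start variants are called isomiRs. Many miRNAs begin with uracil, written T in the tags, because Argonaute proteins favour it at the first position. Ribosomal RNA and tRNA are the most abundant RNAs of a cell, and their fragments enter small RNA libraries at any length. Mature tRNA ends in CCA, which is why tags with this ending had been set aside.

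The sequences that the results turn on are shown here, from 5′ to 3′. First come 8 of the 10 members with the most reads, numbered by their place, with the first base in capitals, or the seed in capitals where the member was a shifted form of a listed miRNA.
Leading tag 1: Cgcgacctcagatcagacgtg
Leading tag 3: Tacgcctgtctgagcgtcgct
Leading tag 4, from miR-140: tACCACAGggtagaaccacgga
Leading tag 5: Cgcgacctcagatcagacgtgg
Leading tag 6: Ccgacttagaactggtgcgga
Leading tag 7, from miR-199a-3p: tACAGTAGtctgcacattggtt
Leading tag 8: Gaagcggttgactttactcttt
Leading tag 9: Acgcgacctcagatcagacgt
Tags 1, 5 and 9 overlapped. Tag 1 is recognisable as the start of the large-subunit ribosomal RNA and tag 6 as an inner stretch of the same RNA. Tag 3 is recognisable as the 3′ end of a short ribosomal RNA, also of the large subunit, that pairs with the RNA of tag 1. These names, and all names of ribosomal RNA and tRNA below, were given from general knowledge, as no ribosomal RNA or tRNA sequences were used here.

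The members held 2236109 reads of the dry period and 3994987 reads of peak lactation. They made up 20.5% of the 21 to 23 nt reads in the dry period (Wilson 95% interval 20.5 to 20.6%) against 61.8% at peak lactation (61.7 to 61.8%). Of all clean reads they were 15.1% and 25.4%. The peak lactation value was 0.76 higher on the log2 scale of reads per 1000000 clean reads, RPM (0.75 to 0.76), but 0.40 lower with TMM factors and 0.42 lower with DESeq2 size factors. The tags of listed miRNAs went from 77.5% to 31.3% of the 21 to 23 nt reads, a log2 difference of -2.14, and the tags ending in CCA from 1.89% to 6.83%. The larger share of members at peak lactation therefore stood beside a smaller share of listed miRNA reads in the same size window.

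The choice of scale set the direction of many values. The median log2 difference over all 18957 tags of any length with at least 100 reads was 1.17, so a typical tag was higher at peak lactation per clean read. TMM factors lowered every log2 difference by 1.16 and DESeq2 size factors by 1.17 (-1.16 and -1.17). Scaling to the reads of listed miRNAs raised every value by 2.08, and scaling to all 21 to 23 nt reads by 0.83. Log2 differences below are per clean read, peak lactation over dry period. Positive values under 1.16 turn negative with both sets of factors, and negative values smaller in size than 2.08 turn positive per listed miRNA read.

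Most members were rare. In total 432030 tags, 78.2% of the members, were seen as a single read over both libraries, and they held 6.93% of the member reads. Tags found in both libraries numbered 70400, or 12.7%, and held 90.8% of the reads. A further 214352 tags were particular to the dry period library and 267809 to the other, mostly at 1 read, where the depth limits what can be seen. Of all tags of the files 12.1% were in both libraries, 34.5% in the first alone and 53.4% in the second alone, near the members' 12.7%, 38.8% and 48.5%. At least 100 reads were reached by 5769 members and at least 1000 reads by 939. The 10 leading tags held 9.05% of the member reads in the dry period against 10.1% at peak lactation, and leading tag 1 alone held 4.39% and 6.16%.

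Leading tag 1, the start of the large-subunit ribosomal RNA, had 98180 reads in the dry period library and 245990 at peak lactation, or 6611 and 15655 RPM. Its log2 difference was 1.24 (1.23 to 1.25), close to the median of all tags. Tag 3 had 7556 and 25752 reads, with a log2 difference of 1.69. Tags 5, 6 and 9, from the large-subunit ribosomal RNA as well, ran from 1.13 to 1.30. These 5 ribosomal tags were thus all higher at peak lactation per clean read, and tag 9 alone among them fell below 0 with the TMM and DESeq2 factors. Tag 4, a form of miR-140, had 21456 and 8056 reads and a log2 difference of -1.49, and tag 7, a form of miR-199a-3p, had 24401 and 3521 reads and -2.87. Only tag 7 of this pair stayed below 0 per listed miRNA read. Tag 8 stood between the groups, with 11431 and 13583 reads, 770 and 864 RPM, and a log2 difference of 0.17 (0.13 to 0.20), negative with TMM and DESeq2 factors.

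**Figure D1:**
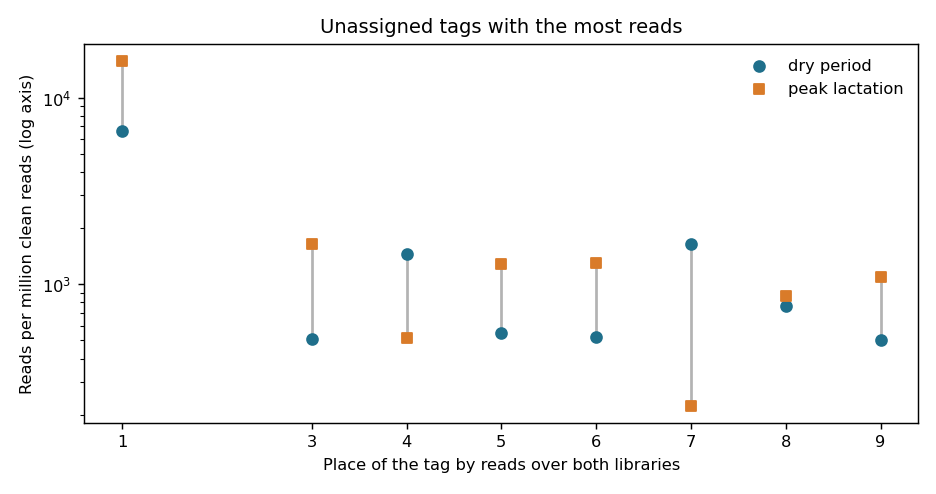
Reads per 1000000 clean reads (RPM, log axis) of 8 of the 10 members with the most reads, by place, in the dry period (circles) and peak lactation (squares) libraries, 1 library each. Tags 4 and 7, forms of miR-140 and miR-199a-3p, were lower at peak lactation per clean read, and tag 8 differed by 0.17 on the log2 scale.

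The members were divided by their relation to other sequences. Shifted forms began 1 to 3 nt before or after a listed miRNA, with an identical overlap of at least 16 nt. 1-mismatch forms began at the same base and had 1 changed base within the first 18 nt. The other classes were forms of a candidate, tags that an added CCA ending of up to 3 nt turned into a tag of the files, and parts of a longer tag of at least 24 nt that had more reads. Taken as first laid down, the class completed to CCA held 18.1% and 24.6% of the member reads, but for leading tag 1 the completed tag had 0 and 1 reads. A stricter form, chosen after seeing the data, asked for more reads of the completed tag than of the member. It left 3067 of 7100 tags with 1.31% and 1.59% of the reads, and is used below for the classes that follow it.

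Shifted forms held 9.37% of the member reads in the dry period (9.34 to 9.41%) against 1.80% at peak lactation (1.78 to 1.81%). 1-mismatch forms held 9.27% (9.23 to 9.30%) and 1.45% (1.44 to 1.46%). Together they went from 18.6% to 3.25% of the member reads, with a log2 difference of -1.76 per clean read that turned to 0.32 per listed miRNA read. Parts of longer tags held 35.9% and 46.9%, with a log2 difference of 1.14 that was -0.01 with TMM factors. No relation was found for 435420 tags with 43.7% and 48.0% of the reads, and 372095 of these tags were single reads. At 100 reads or more, 1809 tags without a relation remained. The members thus split into a small portion of shifted and 1-mismatch forms, lower at peak lactation per clean read, and a larger remainder. The remainder differed by 1.01 per clean read, 0.17 under the median of all tags (-0.17), and was negative with TMM and DESeq2 factors.

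**Figure D2:**
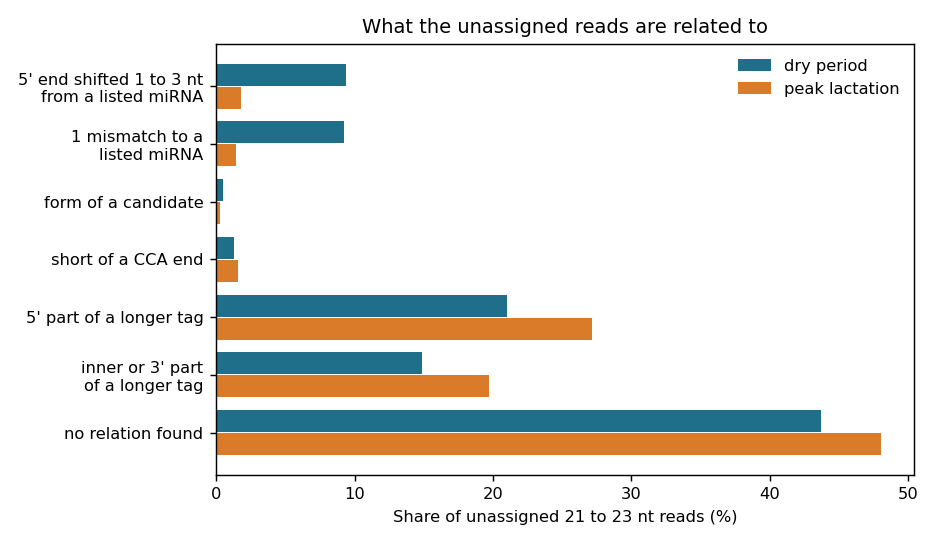
Share of the reads of unassigned 21 to 23 nt tags (%) by relation to other sequences, in the dry period and peak lactation libraries, with the stricter rule for CCA endings. Shifted and 1-mismatch forms went from 9.37% and 9.27% to 1.80% and 1.45%, while parts of longer tags and tags without a relation took larger shares at peak lactation.

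The first base separated the members from the listed miRNAs. Tags of listed miRNAs began with T in 89.5% of reads in the dry period against 80.4% at peak lactation. Members began with T in 27.4% (27.3 to 27.5%) and 19.2% (19.1 to 19.2%) of reads. Their other first bases were near to even in the dry period library, with 22.8% A, 23.1% C and 26.7% G. At peak lactation C reached 30.6% of reads, with 22.9% A and 27.4% G. Leading tag 1 begins with C, but without the 10 leading tags C still began 19.8% of reads in the dry period against 26.0% at peak lactation. When each tag was counted once, 24.8% of members began with T and 29.7% with A, against 58.1% and 26.3% of listed miRNA tags.

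T was more common at the first position of the shifted and 1-mismatch forms than in the members as a whole. 1-mismatch forms, which by definition start where the listed miRNA does, began with T in 71.5% and 62.5% of reads. The leading upstream forms of miR-140 and miR-199a-3p begin with T, whereas the listed sequences begin with A. Shifted forms began with T in 45.8% and 43.7% and with G in 34.7% of reads in both libraries, the G coming mainly from the forms of miR-101 and miR-2284 described below. Among reads without a relation 20.7% and 17.4% began with T and 31.2% and 37.0% with C. These reads include leading tag 1, which begins with C. By the CCA rule as first laid down, which put that tag in another class, 21.9% and 26.3% began with C. The shares with T were then 24.5% and 21.1%.

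**Figure D3:**
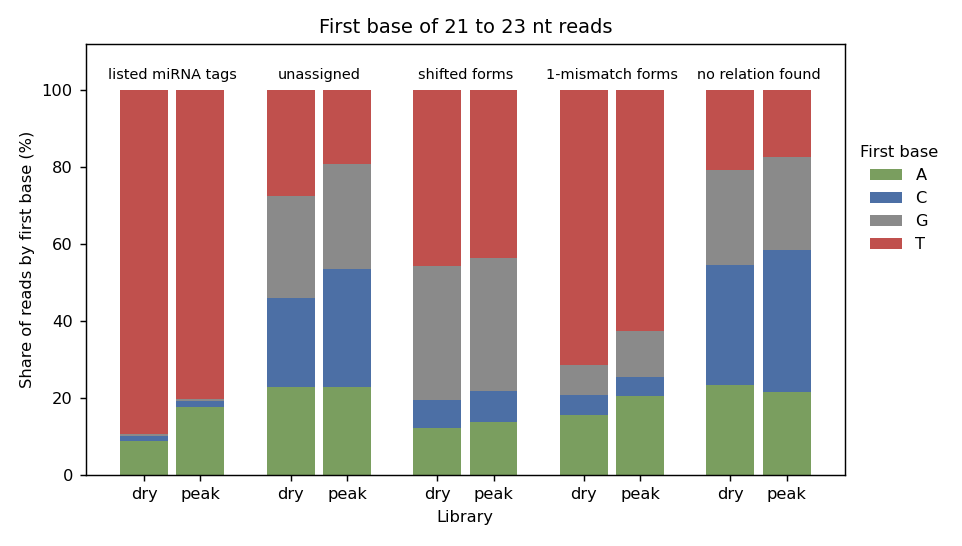
First base (share of reads, %) of 21 to 23 nt reads in each library for listed miRNA tags, all members, shifted forms, 1-mismatch forms and tags without a relation. T leads in the listed miRNAs with 89.5% and 80.4% of reads, and in all members it reaches 27.4% and 19.2%.

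The members were also richer in G and C than the listed miRNAs. Their mean GC content over reads was 52.2% in the dry period (SD over reads 12.95) against 56.4% at peak lactation (SD 13.66), against 37.7% and 39.0% for tags of listed miRNAs and 60.1% and 59.8% for tags ending in CCA. Shifted forms had 44.7% and 46.2%, and 1-mismatch forms 39.8% and 43.2%, between these sets. Tags without a relation had 54.5% and 57.7%. Without the shifted and 1-mismatch forms the mean of the members was 54.4% and 56.8%, so the gap between the libraries narrowed. With each tag of both libraries counted once, the mean was 51.8% for members, 45.5% for listed miRNAs and 57.5% for tags ending in CCA. The members were thus closer to the listed miRNAs by tag than by read.

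The difference between the libraries went with GC content. Reads of members under 35% GC had a log2 difference of -0.16, and those of 35 to 45% had 0.16. From 45 to 55% the value was 0.76, from 55 to 65% it was 0.95, from 65 to 75% it was 1.17 and from 75% upward 1.63. With TMM factors the classes under 65% GC were negative, that of 65 to 75% lay near 0 and the last stayed positive. When shifted and 1-mismatch forms were left out, the lowest class had 0.39 and the order of the classes was the same, ending at 1.63. Over the 5765 members with at least 100 reads and a read in each library, Pearson's r between GC content and the log2 difference was 0.42 and Spearman's rho 0.36. It was 0.32 and 0.26 for the 5256 of them that were no shifted or 1-mismatch form, and 0.10 and 0.08 for 817 tags of listed miRNAs. These points share the libraries, and many overlap in sequence. Whether base composition had a part in the library difference was not tested.

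**Figure D4:**
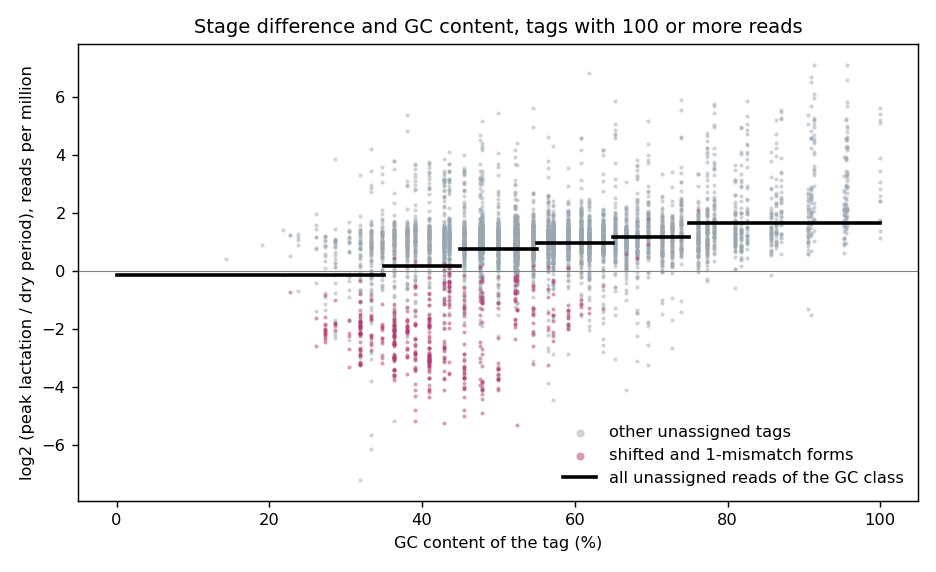
log2 difference (peak lactation over dry period, RPM) against GC content (%) for members with at least 100 reads and a read in both libraries, 1 point a tag; black lines give all member reads of each GC class. The lines climb from -0.16 below 35% GC to 1.63 from 75% upward, and shifted and 1-mismatch forms lie mostly below 0.

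Length changed less. Tags of 21 nt held 35.8% of the member reads in the dry period against 37.9% at peak lactation, tags of 22 nt 37.2% and 32.2%, and tags of 23 nt 26.9% and 29.9%. In tags of listed miRNAs 22 nt reads led with 70.5% and 64.1%. The log2 differences of the members were 0.84, 0.55 and 0.91 for 21, 22 and 23 nt, all negative with TMM factors.

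Of the 5769 members with at least 100 reads, 3024 were over 2-fold higher at peak lactation per clean read (52.4%) and 557 over 2-fold lower (9.66%). Over all tags of the files with this many reads, the members included, the same shares were 60.0% and 8.64%. The members thus lay under this background for higher tags and near it for lower ones. Their median log2 difference of 1.04 lay 0.14 under that of all tags (-0.14). The classes differed. Of 154 shifted forms 0 were over 2-fold higher and 113 lower, and of 355 1-mismatch forms 3 were higher and 308 lower, as with 5 and 590 of the 817 tags of listed miRNAs. Of 3324 parts of longer tags 1988 were over 2-fold higher (59.8%) and 9 lower (0.271%), so the higher share was that of all tags. Of the 1809 tags without a relation 971 were higher (53.7%) and 117 lower (6.47%), both under the shares of all tags. With TMM factors 520 members were over 2-fold higher and 988 lower, so the balance of calls turned round. These factors also bring the median of all tags to 0.02, and calls over all tags were not counted with them.

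The starts of the reads gave a further description of the members, chosen after seeing the data. For each tag with at least 1000 reads, the share of reads that began at the same base was counted among all reads holding its first 16 nt at any place. In 285 such tags of listed miRNAs the median share was 99.9%, and 265 of them reached 90%. In 939 members the median was 27.0% and 93 reached 90%. It was 99.9% in 34 mismatch forms, 17.3% in 475 parts of longer tags and 35.6% in 388 tags without a relation. For most abundant members, the majority of reads holding these 16 nt thus began upstream, unlike for the listed miRNAs. Reads that began further downstream do not hold the 16 nt and were not counted.

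By shared stretches of 16 nt the 939 abundant members and all members sharing such a stretch with them formed 164 families, with 72.3% of the member reads in the dry period against 77.1% at peak lactation. Of these families 79 were over 2-fold higher at peak lactation and 31 lower, 48.2% and 18.9% beside 60.0% and 8.64% of all tags, with a median log2 difference of 0.99, negative with TMM factors. The families differed in build, and 62 of them had a single abundant tag. The first, around leading tag 1, had 3 start sites among its 10 abundant tags, and the leading one held 78.0% of its reads. The second had 35 start sites among 80 abundant tags, and its leading one held 3.53%.

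Shifted forms were found for 256 listed miRNAs, but 4 combinations of miRNA and shift held 71.2% of their reads. Starts 1 nt upstream held 65.5% of shifted reads in the dry period against 67.0% at peak lactation, and starts 1 nt downstream 18.9% and 17.6%. The leading forms are printed with the seed in capitals below the listed sequence they extend, to show how the seed moves.
Listed miR-140: aCCACAGGgtagaaccacgga
Upstream form: tACCACAGggtagaaccacgga
Upstream form, 23 nt: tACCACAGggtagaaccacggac
Listed miR-101: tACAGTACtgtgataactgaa
Upstream form, 21 nt: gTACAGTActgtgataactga
Upstream form, 22 nt: gTACAGTActgtgataactgaa
Listed miR-199a-3p: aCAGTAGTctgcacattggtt
Upstream form: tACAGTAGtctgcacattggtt
Listed miR-2284x: tGAAAAGTtcgttcgggttttt
Listed miR-2284h: aAAAGTTCgttcgggttt
Form between them: gAAAAGTTcgttcgggttttt

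The upstream forms of miR-140, a miRNA known from cartilage and mesenchymal cells, held 52294 and 23167 reads, against 77697 and 36202 reads of tags of the listed start. The ratio of the forms was 0.67 in the dry period against 0.64 at peak lactation, and both forms were lower at peak lactation per clean read (-1.26 and -1.18), which turned round per listed miRNA read. For miR-101 the upstream start had 35257 and 15424 reads against 34409 and 18328, a ratio of 1.02 in the dry period against 0.84 at peak lactation. The upstream start of miR-101 was therefore as common as the listed one in the dry period library. For miR-199a-3p, known from stromal cells, the upstream start had 37667 and 5623 reads against 142761 and 19327, a ratio of 0.26 and 0.29. The 3 ratios kept their order in both libraries, although the listed forms differed between the libraries by -1.18, -0.99 and -2.97 on the log2 scale.

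A tag family that began between miR-2284h and miR-2284x had 24418 and 6667 reads, against 36461 and 10692 for miR-2284x and 672 and 140 for miR-2284h. These belong to a large ruminant miRNA family. Downstream starts were rarer. For miR-320, which is made without the usual Drosha step, the start 1 nt downstream had 8035 and 2071 reads and a ratio of 0.06 and 0.05 to the listed start. For miR-200b the start 2 nt downstream had a ratio of 0.25 and 0.36. For let-7f, the most sequenced of these, the start 1 nt downstream had a ratio of 0.0020 and 0.0014. The lowest log2 difference among abundant shifted forms was that of let-7a begun 1 nt downstream, gAGGTAGTaggttgtatagtt, with 2042 and 182 reads and -3.57.

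1-mismatch forms numbered 16683 tags with 207180 and 58006 reads, or 2.46 and 2.86 reads for each 100 reads of tags of listed miRNAs. Forms of let-7 or miR-98, a family best known for its role in development, held 73.8% of these reads in the dry period against 48.6% at peak lactation. Positions were counted from 1 at the 5′ end. Where a single substitution explained the tag, position 1 held 17.1% and 14.4% of the reads and position 3 held 16.5% and 13.8%. Position 12 held 1.60% and 8.27%, and the forms of miR-2904 T12C, described below, had 1044 and 3594 reads. A-to-G changes led the kinds of substitution with 18.3% and 16.5%. The 5 mismatch forms with the most reads, with the changed base in capitals, all belonged to let-7. Their names rest on the first 18 nt, which let-7a and let-7c share. Beyond these bases the tags named for both follow let-7a and differ from let-7c.
let-7f A3G: tgGggtagtagattgtatagtt
let-7a and let-7c A3G: tgGggtagtaggttgtatagtt
let-7f T1A: Agaggtagtagattgtatagtt
let-7f T1G: Ggaggtagtagattgtatagtt
let-7a and let-7c T1A, also let-7d C16T: Agaggtagtaggttgtatagtt

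The form let-7f A3G had 5903 and 1488 reads, which were 27.4 and 28.4 for each 10000 reads of the identical let-7f tag. The same change in let-7a had 5358 and 743 reads, and both forms were less frequent at peak lactation per clean read (-2.07 and -2.93), of which only the latter stayed below 0 per listed miRNA read. Over positions 1 to 18, all substitutions together came to 246 and 251 for each 10000 reads of let-7f, and to 216 and 227 for let-7a. The frequency of mismatch forms was therefore about the same in both libraries, although the identical tags differed by -2.12 and -3.03 on the log2 scale. Of 53 let-7f substitutions 51 lay within 0.5 of the log2 difference of the identical tag, and of 50 let-7a substitutions 46 did. This profile was computed after the data had been seen.

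By position, let-7f had 43.8 and 44.2 mismatch reads for each 10000 at position 1, 34.7 and 36.6 at position 3 and 4.46 and 4.95 at position 10. The values of let-7a had the same peaks, with 45.6 and 43.4 at position 1 and 34.8 and 37.1 at position 3. A few substitutions differed beyond the counting intervals. The form let-7a T18C had 12.1 (11.6 to 12.6) and 17.8 (16.2 to 19.5) for each 10000, and let-7f G2T had 7.44 (7.09 to 7.82) and 10.6 (9.79 to 11.6). The first of these tags is also let-7g T12G, so its reads cannot be given to let-7a alone. At position 12 let-7f and let-7a differ, so let-7f A12T and let-7a G12T are the same tag, with 2188 and 367 reads, which is also let-7g C18T. Over the first 18 nt, 6 let-7f and 11 let-7a substitutions were also 1 base away from another listed let-7 or miR-98 sequence. Let-7c was not counted, and later bases were not compared. The let-7a value at position 1 includes the tag shared with let-7d.

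**Figure D5:**
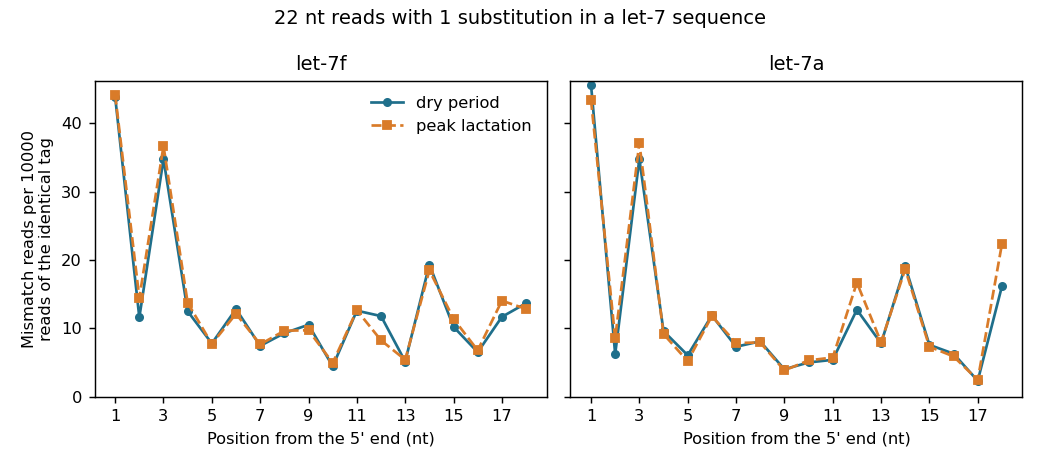
Reads with 1 substitution for each 10000 reads of the identical 22 nt tag, by position from the 5′ end (nt), for let-7f and let-7a in the dry period and peak lactation libraries. Both libraries peak at position 1 and position 3, with 43.8 and 44.2 at position 1 of let-7f.

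Of 847 mismatch forms with at least 30 reads, 5 had more reads than the listed miRNA they resembled, a comparison made after the data had been seen. The 3 with the most reads are printed with the changed base in capitals, beside the listed sequence.
Listed miR-2904: ggagcctcggtTggcctcggata
miR-2904 T12C: ggagcctcggtCggcctcggata
Listed miR-2487: tctaagggctgggCcggt
miR-2487 C14T: tctaagggctgggTcggtcggg
Listed miR-2476: Cccctgtggtctagtggtta
miR-2476 C1T: Tccctgtggtctagtggttag
The forms of miR-2904 had 1044 and 3594 reads, against 4 and 4 reads of the listed sequence, and those of miR-2487 had 720 and 1148 reads, against 2 and 2. They were higher at peak lactation per clean read (1.70 and 0.59), whereas 308 of the 355 mismatch tags with at least 100 reads were over 2-fold lower, and the second was negative with TMM factors. The tags printed for them had a GC content of 69.6% and 68.2%. The mean over all 1-mismatch reads was 39.8% in the dry period against 43.2% at peak lactation. Such names rest on likeness to a listed sequence only, and whether the tags come from these miRNAs was not tested. The forms of miR-2476 had 107 and 102 reads, against 0 and 5. The remaining forms were miR-24 T17A, with 48 and 14 reads against 7 and 6, and miR-2284a G12T, with 25 and 6 against 0 and 0.

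Among members with at least 1000 reads, 873 were no form of a listed or candidate miRNA. Of these, 48 had 90% or more of the reads holding their first 16 nt begin at their own first base. They began with 26 different stretches of 16 nt, and only 5 of these began with T. Their median GC content was 56.5%, and 7 of them were over 2-fold higher and 7 over 2-fold lower at peak lactation, 14.6% each way beside 60.0% and 8.64% of all tags. Many can be recognised as the 5′ ends of tRNAs, among them tRNAs for lysine, alanine, serine, leucine, valine, histidine and glutamate. This group was formed after its values had been seen, and 4 of its tRNA starts are shown with the first base in capitals.
tRNA for lysine: Gcccggatagctcagtcggta
tRNA for alanine: Ggggatgtagctcagtggtagag
tRNA for serine: Gtagtcgtggccgagtggtta
tRNA for histidine: Ggccgtgatcgtatagtggtta
The lysine tRNA start had 6881 and 14544 reads and a log2 difference of 0.998, the alanine start 5284 and 6786 reads and 0.28, and the serine start 2797 and 4250 reads and 0.52, all negative with TMM factors. The histidine start had 1407 and 805 reads and -0.89, positive per listed miRNA read. The tRNA starts thus did not move as one.

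Within the same group stood 5 tags that resemble the opposite arm of a listed miRNA. A hairpin gives a miRNA from each arm, and the 2 arms pair with each other. The unassigned arm and the listed arm are printed as pairs, with the longest stretch of unbroken complementarity in capitals.
Unassigned arm of miR-340: tTATAAAGcaatgagactgatt
Listed miR-340: tccgtctcagttaCTTTATAgcc
Unassigned arm of miR-221: acctggcatACAATGTAGattt
Listed miR-221: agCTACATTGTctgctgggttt
Unassigned arm of miR-30a: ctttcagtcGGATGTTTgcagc
Listed miR-30a-5p: tgtAAACATCCtcgactggaagc
Unassigned arm of miR-1307: tCGACCGgacctcgaccggctc
Listed miR-1307: actcggcgtggcgtCGGTCGtg
Unassigned tag close to the other arm of miR-28: cactagattgaGAGCTCCTgga
Listed miR-28: aAGGAGCTCacagtctattga
The complementary stretches were 7, 9, 8, 6 and 8 nt long. Short stretches of this length also occur between unrelated sequences, and the names of the arms come from general knowledge.

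Tags sharing 18 nt with the unassigned arm of miR-340 had 5006 and 2808 reads, whereas the listed miR-340 had 1 and 0. The unassigned arm of miR-1307 had 1856 and 623 reads against 280 and 85 of the listed arm, and the tag close to miR-28 had 2838 and 1487 against 614 and 214. In these 3 pairs the arm outside the list was therefore the more abundant. For miR-221, studied in vessel wall and endothelial cells, the unassigned arm had 3237 and 836 reads against 11400 and 1211, and for miR-30a 2558 and 1269 against 60619 and 35736. All 5 unassigned arms were lower at peak lactation per clean read, with log2 differences of -0.92, -2.03, -1.09, -1.66 and -1.01 in the order printed, which per listed miRNA read became positive for each. The listed arm had a lower value than the unassigned one for miR-221 (-3.32) and miR-28 (-1.60), and a higher one for miR-30a (-0.84). For miR-1307 the listed arm had -1.80 against -1.66, too close at 280 and 85 reads to put in order. Only the listed arm of miR-221 stayed below 0 per listed miRNA read.

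Tags at the ends of the range of stage differences were named as well. Of 647 members with at least 1000 reads in a library, the 5 highest and the 5 lowest log2 differences were taken. The 5 highest were all 23 nt long, and 3 of them are shown with the first base in capitals.
Highest: Cccgcggcggcgggcgcgtcggt
Number 2: Ggccgtcgccggcagtcggagag
Number 5: Tgactgaacgcctctaagtcaga
The highest had 22 and 1438 reads, a log2 difference of 5.95 (5.35 to 6.55) and a GC content of 91.3%. The second had 72 and 4043 reads and 5.73, and number 5, a stretch of the large-subunit ribosomal RNA, had 54 and 2064 reads and 5.17 at 47.8% GC. Tags holding the first 16 nt of these 3 at any place differed by 3.35, 2.36 and 1.93, less than the single tags.

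The lowest value belonged to a tag of 21 nt, and the next 4 were forms of let-7 with -3.57 to -3.15.
Lowest: Gggcacctggtgctaaaccat
This tag had 1112 reads in the dry period against 54 at peak lactation, a log2 difference of -4.45 (-4.84 to -4.05). All tags that held its first 16 nt had 1299 and 967 reads and differed by -0.51, positive per listed miRNA read. The large difference thus lay in this exact tag and not in the tags around it.

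At 0 in a library were 4 of the 5769 members with at least 100 reads (0.0693%), beside 64 of 18957 tags of the files (0.338%). Of these, 3 had no read in the dry period library and 173 to 183 reads at peak lactation, and the fourth had 124 reads in the dry period against 0 at peak lactation. A count of 0 allows up to 3 reads, or 0.20 and 0.19 RPM, so the first 3 were at least 5.77 higher on the log2 scale and the fourth was at least 5.45 lower (-5.45).

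Copies with 1 changed base and at least 100 reads were counted for 5 tags. These had the most reads among tags without a relation by the CCA rule as first laid down. By the stricter rule leading tags 1 and 5 also had no relation, but they were not among the 5. The 5 were leading tags 3, 8 and 9 and a pair of overlapping tags of 72.7% and 76.2% GC. Of the copies 2, named after their values had been seen, differed between the libraries in another way than the tag itself. They are printed with the changed base in capitals, the position counted from 1 at the 5′ end.
Leading tag 3, T21A: tacgcctgtctgagcgtcgcA
Leading tag 8, C17A: gaagcggttgactttaAtcttt
The copy of tag 3 had 2441 and 2084 reads, 32.3% and 8.09% of the reads of the tag, and the copy of tag 8 had 447 and 13 reads, 3.91% and 0.0957%. Their log2 differences were -0.31 and -5.19, against 1.69 and 0.17 for the tags. In the other copies counted the share was 0.30 to 1.16% of the tag in either library.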

How the data were processed

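Small RNA under 30 nt from mammary gland, pooled from 3 goats per stage, was sequenced as 1 dry period and 1 peak lactation library. The authors trimmed adaptors, removed low-quality, poly(A) and short reads, collapsed identical reads and deposited each tag with its count of clean reads, neither normalized nor aligned. The submitters' processing notes name CASAVA.

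Members and lists were chosen with earlier results of these data known. Counts were scaled to 1000000 clean reads. Shares carry Wilson 95% intervals, and log2 differences an interval from the split of reads between libraries. With 1 library per stage no test was made. A tag was called past 2-fold, with at least 100 reads over both libraries. Named tags were the 10 with the most reads, the 5 highest and 5 lowest differences among those with at least 1000 reads in a library, the 5 leading shifted, mismatch and unrelated tags, and others said to be chosen later. The unrelated tags were taken by the CCA rule as first laid down.

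Alternatives covered the shared stretch, read minimums, shift and mismatch limits, the leading tags and the scaling, using R 4.3.3 with TMM factors (edgeR 4.0.16) or DESeq2 1.42.0 size factors. All else was done with matplotlib 3.10.9, scipy 1.17.1 and numpy 2.4.6 under Python 3.11.15. The classes and differences were tested on simulated data. Genome positions and annotation were not used here. Leading tags 2 and 10 are not reported here.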

Additional observations from a re-analysis of the deposited data

How the results depend on the processing

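No paired analysis was possible because each stage had 1 library, and for the same reason no replicate could be left out. The counting intervals are so narrow that most alternatives fell outside them while the shares and means of all members mostly stayed close in value. The scaling, the read minimum for counts of tags and the rule for CCA endings moved values further. The share of members among 21 to 23 nt reads was 20.3% and 61.6% with a shared stretch of 16 nt, 20.9% and 61.9% with 20 nt, 20.5% and 61.7% without forms of candidates, and 18.2% and 59.3% for tags of at least 10 reads. Reads beginning with T were 26.5% and 23.6% when each tag was counted once and 27.5% and 20.3% without the 10 leading tags, and at peak lactation 18.7% for tags of at least 10 reads. Mean GC was 50.7% and 53.2% for each tag once, 52.5% and 56.8% at 10 reads, and 51.8% and 56.1% without the leading tags. Shifted and mismatch forms held 18.6% and 3.23% with shifts up to 2 nt, 3.28% at peak lactation with shifts up to 5 nt, 18.2% and 3.18% with the mismatch taken over the whole tag, and 20.4% and 3.35% at 10 reads. The log2 difference of all members was 1.59 per 21 to 23 nt read, 2.84 per listed miRNA read and 0.74 without the leading tags, and it reversed to -0.40 with TMM factors and to -0.42 with DESeq2 size factors. These factors rest on tags with at least 100 reads, whose median they bring near 0. The counts past 2-fold that follow have no share over all tags beside them, which was counted only per clean read at 100 reads. Members over 2-fold higher numbered 4772 and lower 363 per 21 to 23 nt read, 5238 and 119 per listed miRNA read, 520 and 988 with TMM factors, 513 and 1001 with DESeq2 factors, 8214 and 2138 of 16454 at a minimum of 20 reads (49.9% and 12.99%), and 986 and 139 of 1805 at 500 reads (54.6% and 7.70%). The stricter rule for CCA endings, chosen after seeing the data, lowered that class from 18.1% and 24.6% to 1.31% and 1.59%. Depth limits the 432030 tags seen as a single read, for which absence from the other library says nothing.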
